A study of Mus musculus with 24 samples.

Results

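The genes described here encode the machinery that makes and processes ribosomal RNA (rRNA) in the nucleolus. They were chosen by name as 36 mouse genes in 7 roles: 5 subunits of RNA polymerase I (Pol I), 6 Pol I initiation factors, 6 abundant nucleolar proteins and chaperones, 4 proteins of box C/D small nucleolar ribonucleoproteins (snoRNPs), 4 proteins of H/ACA snoRNPs, 3 proteins of the small subunit processome or of rRNA acetylation, and 8 large subunit assembly factors and rRNA methyltransferases. All 36 were found among the 55487 gene rows, and all 36 passed the filter on low counts in both sets of libraries.

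Pol I transcribes the rRNA genes into one long precursor. UBF (Ubtf) and the selectivity factor SL1 (Taf1a to Taf1d with the TATA-binding protein) recruit it to the promoter, and TIF-IA (Rrn3) makes the polymerase competent to start. Box C/D snoRNPs guide methylation and H/ACA snoRNPs guide pseudouridylation of the precursor, while assembly factors cut, fold and export the subunits. In mice many guide snoRNAs are released from the introns of genes whose proteins take part in the same process.

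The study used KH2 cells, a mouse embryonic stem (ES) cell line built for doxycycline (DOX)-controlled transgenes, here carrying an inducible DUX transgene. DUX is the transcription factor that switches on genes of the 2-cell embryo. Total RNA was depleted of rRNA and sequenced after 16 h with DOX or without it, with 2 libraries per group, in 24 libraries and 12 groups. All groups carry the transgene, and the labels do not say whether a line is a single clone or whether the 2 libraries of a group came from separate cultures, so p-values measure only the spread between these libraries, which may be technical.

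The groups were WT and DUXBL-KO (lacking DUXBL, a DUX-related protein, by label; called the plain set here), each without and with DOX, and TRIM33-KO pLV2, TRIM24-KO pLV2 and 2 wild-type lines, WT pLV2 line 1 and WT pLV2 line 2 (the pLV2 set), each likewise. TRIM24 and TRIM33 are chromatin-binding transcriptional regulators. What pLV2 stands for, and which WT line a knockout came from, is not in the labels, and the digit that follows pLV2 for WT is taken to number the line. The treatment tag contradicted the title in 8 libraries of the pLV2 set. The titles were followed, and the count of the Dux gene was 0 to 2 in libraries titled without DOX and 20 to 110 in those titled with it.

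Libraries held 11784696 to 19136869 gene counts. Trim33 had 408 and 446 counts in TRIM33-KO without DOX against 1921 and 2383 in WT pLV2 line 2. Trim24 had 2278 and 2123 counts in the libraries labelled TRIM24-KO against 1461 and 1469 in line 1 and 4036 and 2699 in line 2, and Duxbl1 had 16 and 6 counts in those labelled DUXBL-KO against 24 and 6 in WT. Whole-gene counts therefore do not check these labels, and both groups are called by their labels. The pluripotency gene Pou5f1 stood without DOX at 581 to 833 CPM (counts after scaling by library size), while the fibroblast collagens Col1a1 and Col1a2 stayed at or below 4.60 CPM there. Feeder fibroblasts may be present by the growth protocol, and 19 fibroblast markers summed to 674 to 1971 CPM without DOX and 679 to 1807 CPM with it, with 6 to 9 of them at 0 in each library without DOX. Of the 10 tested, 1 rose in line 1 (Thy1), 1 rose and 2 fell in line 2, 2 rose in the libraries labelled TRIM24-KO and 2 rose and 1 fell in TRIM33-KO with DOX, and none was called in the plain set. Their part in the DOX results was not tested. All 15 markers of the 2-cell-like state rose with DOX in each of the 6 lines.

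In 2 libraries one row annotated as rRNA, CT010467.1 on chromosome 17 (39846353 to 39848827), took a large share of the gene counts: 30.4% in the library labelled TRIM24-KO with DOX replicate 2 and 12.9% in TRIM33-KO with DOX replicate 2, against 1.30% or less in the other 22. The RNA was depleted of rRNA, so this row is no measure of rRNA synthesis. Both are DOX libraries, so the DOX counts of these 2 lines, and the members whose call ended, are also given without them.

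Promoter windows show what the members share in sequence. RefSeq gave a window for 31 of the 36 members on GRCm38.p6, and the 250 bases before the start were searched on both strands for the E-box CACGTG, the site of MYC and its partners, for CCGGAAG, a core bound by ETS factors, and for the CpG-containing palindrome bound by BANP. For each member the 1 window nearest its annotated start was read, while the background holds every window of all genes, several for some genes. The E-box stood in 2 of the 31 (6.45%) against 6.02% of 32851 windows, CCGGAAG, which was chosen after these sequences had been read, in 8 (25.8%) against 6.91%, and the BANP palindrome in 0 against 0.390%. These are letter matches and not tested sites. The windows of Rrn3 and Nop2, the 2 members with an E-box, are printed with those of Taf1d, Nop56 and Ppan, on which the DOX results turn and which hold none of these motifs. Capitals mark CACGTG and CCGGAAG. The windows are on the plus strand at chr16:13780449-13780698 (Rrn3), chr6:125131633-125131882 (Nop2), chr9:15305964-15306213 (Taf1d), chr2:130274162-130274411 (Nop56) and chr9:20887925-20888174 (Ppan), 5′ to 3′.
Rrn3: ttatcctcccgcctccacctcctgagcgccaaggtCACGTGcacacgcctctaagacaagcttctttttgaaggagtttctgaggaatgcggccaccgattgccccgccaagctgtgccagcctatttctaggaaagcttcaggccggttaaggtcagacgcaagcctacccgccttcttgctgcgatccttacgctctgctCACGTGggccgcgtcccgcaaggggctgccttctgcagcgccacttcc
Nop2: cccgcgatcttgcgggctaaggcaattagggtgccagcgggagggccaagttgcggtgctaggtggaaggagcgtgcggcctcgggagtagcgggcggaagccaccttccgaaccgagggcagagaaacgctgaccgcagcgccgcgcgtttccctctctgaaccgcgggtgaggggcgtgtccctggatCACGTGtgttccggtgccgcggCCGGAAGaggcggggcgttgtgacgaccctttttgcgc
Taf1d: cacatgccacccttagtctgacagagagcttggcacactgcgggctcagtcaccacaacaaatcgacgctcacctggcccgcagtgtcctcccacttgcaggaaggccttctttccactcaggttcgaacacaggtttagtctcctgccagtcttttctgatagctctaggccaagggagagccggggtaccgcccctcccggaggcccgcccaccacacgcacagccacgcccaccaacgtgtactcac
Nop56: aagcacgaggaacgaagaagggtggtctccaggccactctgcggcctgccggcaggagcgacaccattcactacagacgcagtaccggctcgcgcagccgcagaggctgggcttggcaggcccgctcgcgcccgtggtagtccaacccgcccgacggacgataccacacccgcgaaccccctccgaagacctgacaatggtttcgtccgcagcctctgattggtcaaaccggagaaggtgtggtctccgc
Ppan: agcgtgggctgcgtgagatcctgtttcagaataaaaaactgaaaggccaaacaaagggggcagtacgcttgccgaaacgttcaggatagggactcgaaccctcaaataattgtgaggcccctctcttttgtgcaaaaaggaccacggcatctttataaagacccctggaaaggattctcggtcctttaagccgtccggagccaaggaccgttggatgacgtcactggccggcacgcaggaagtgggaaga

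Levels differed over 2 orders of magnitude between members. On the scale of CPM per kb of exon, the median level over the 12 libraries without DOX was 1105 for Npm1 (nucleophosmin, a ribosome assembly chaperone) and 245 for Ncl (nucleolin, which binds the rRNA precursor). Next came Mybbp1a at 173, Nhp2 (an H/ACA core protein) at 138 and the helicase Ddx21 at 116 CPM per kb. Lowest were the SL1 subunits Taf1a at 7.05 and Taf1c at 7.74, Wdr12 at 7.08, and the Pol I subunits Polr1e at 7.82 and Polr1a, the largest subunit, at 8.31 CPM per kb. Ranges over the 12 libraries overlapped between most neighbours in this order, but Npm1 (748 to 1229) overlapped no other member. The exon length used is the union over all annotated transcripts of a gene, and the order depends on it. Before division by length, Wdr12 had a median of 83.8 CPM over all 24 libraries, above Polr1d (76.7), Rrs1 (64.7) and Gar1 (47.3). Both sets were scaled apart, so their levels set side by side are a description. Gene models sharing at least 200 bases at 95% identity with another gene's transcripts were found for 7 members (among them Npm1 and Nop56 with 4 pseudogenes each and Taf1d with 1), and how the authors' counting treated reads shared by such copies is not given in the sources used here.

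**Figure D1:**
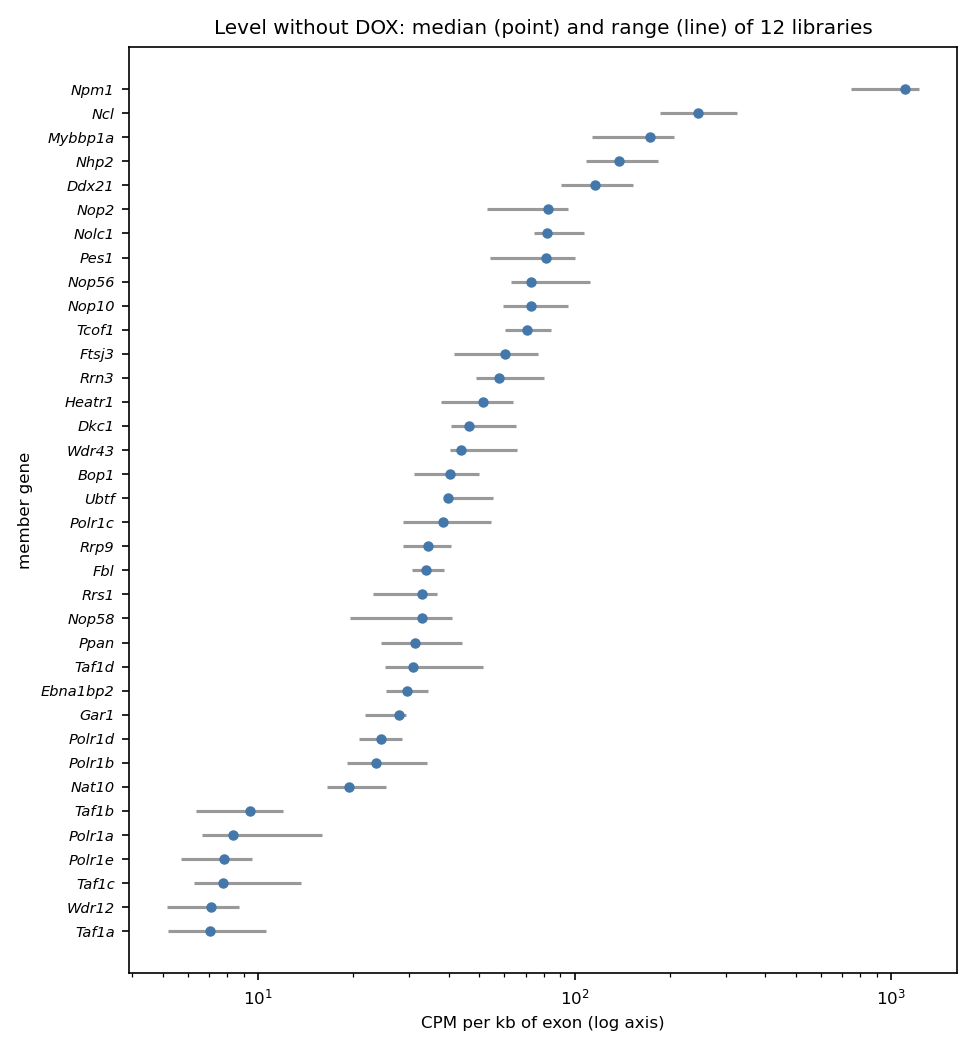
Level of each of the 36 members in CPM per kb of exon (horizontal log axis) over the 12 libraries without DOX, as the median (point) and range (line). Npm1 stands at 1105 and Ncl at 245, and Taf1a is lowest at 7.05.

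The first question was what DUX induction for 16 h did to these genes. Of the 36, 20 (55.6%) were called in none of the 6 comparisons of DOX with no DOX, 7 in 1, 5 in 2, and 4 (11.1%) in 3 or more. Of 17241 genes tested in both sets, 56% were called in none and 15.9% in 3 or more, so the members lay near the background. A gene was called when its adjusted p (edgeR quasi-likelihood test, Benjamini-Hochberg over all genes tested) was under 0.05. Taf1d and Nop56 were called higher in all 4 lines of the pLV2 set, and Wdr43 and Ppan were called lower in 3 of them, and no member was called higher in one line and lower in another. Because bulk libraries average over cells, fewer cells with a transcript and less transcript per cell cannot be told apart.

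**Figure D2:**
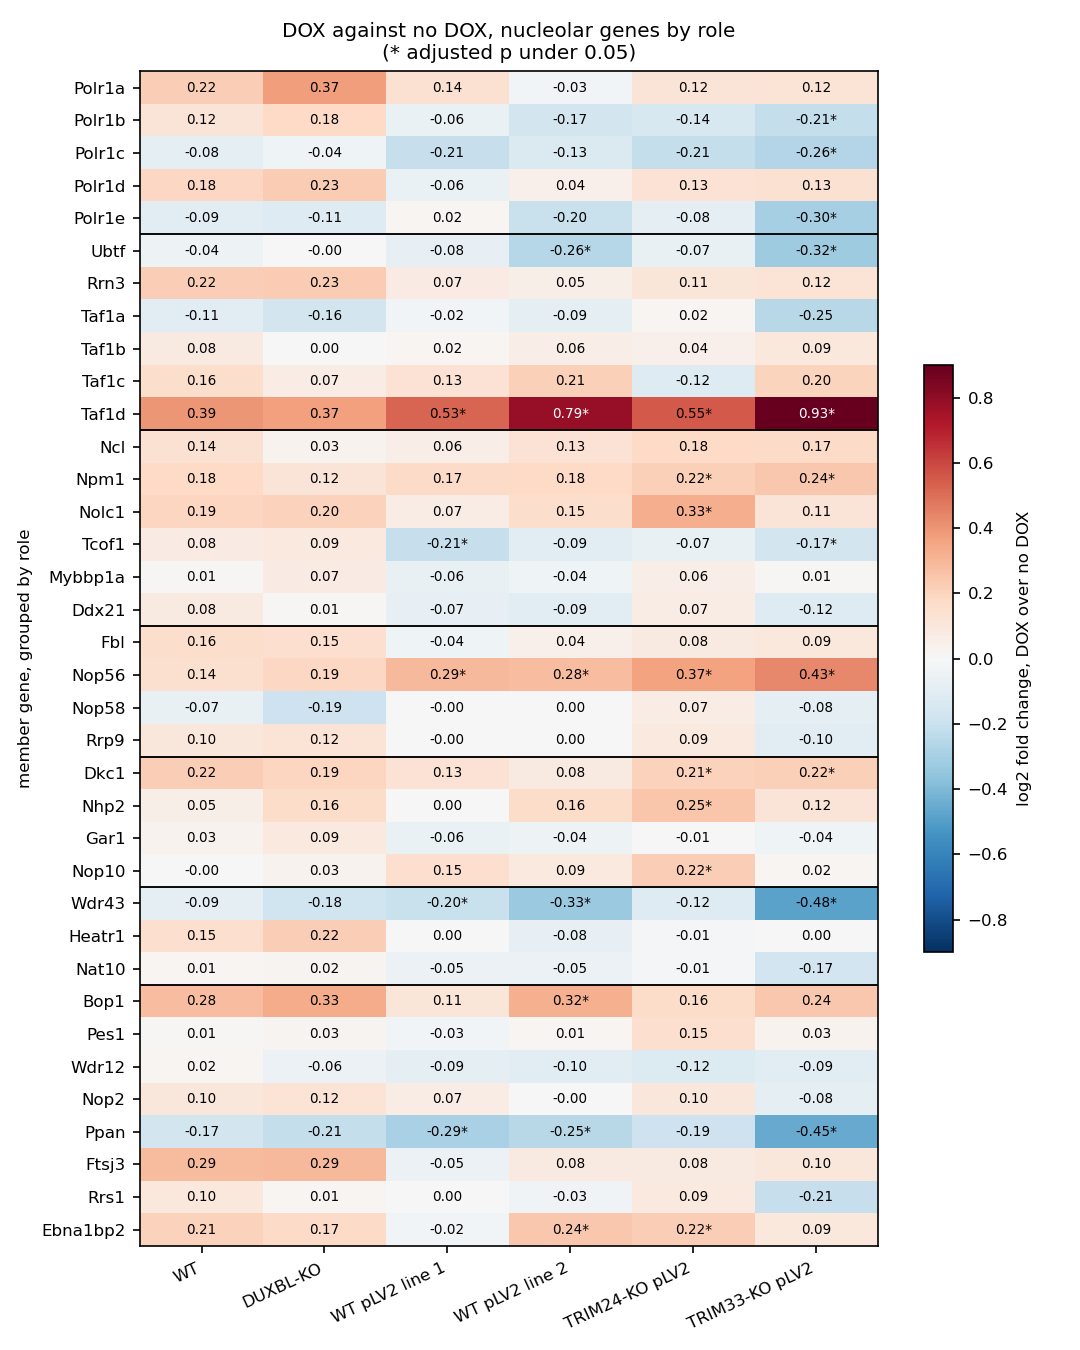
log2 fold change with DOX over no DOX for the 36 members (rows, separated by lines into the 7 roles) in the 6 lines (columns), with an asterisk where the adjusted p was under 0.05. The Taf1d row is positive throughout (0.37 to 0.93), and the Wdr43 and Ppan rows are negative throughout.

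No member was called in the plain set in the reported fit. In WT 0 of 36 members passed beside 2.93% of all genes called, and 3 had an unadjusted p under 0.05. In DUXBL-KO 0 of 36 passed beside 4.91%, and 9 had an unadjusted p under 0.05. DESeq2 called 0 in both as well. With the replicate number as a block, 2 were called in WT (5.56% of members beside 5.32% of genes) and 3 in DUXBL-KO (8.33% beside 8.83%). The median log2 fold change of the members was 0.10 in WT and 0.09 in DUXBL-KO, against -0.01 over all genes in each, and 28 of 36 were positive in each line. The spread between replicates was wider in this set, with a common coefficient of variation of 17.8% against 8.55% in the pLV2 set.

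In WT pLV2 line 1, 2 members rose and 3 fell, where 10% of all genes were called higher and 6.25% lower (16.3% in all). In line 2, 4 rose and 3 fell, beside 12.7% and 14% (26.8%). In the libraries labelled TRIM24-KO 8 rose and 0 fell, beside 11.5% and 4.94% (16.4%). In TRIM33-KO 4 rose and 7 fell, beside 16.5% and 20.1% (36.6%). As shares of the 36 members these calls were 13.9%, 19.4%, 22.2% and 30.6%, below the background in 3 lines and above it in those labelled TRIM24-KO. This standing varied with the setting. The members' share was above that of all genes in 20 of 26 settings (the one reported included) for the libraries labelled TRIM24-KO, 8 for line 2, 4 for line 1 and 3 for TRIM33-KO. DESeq2 gave 25% of members beside 19.5% of genes in line 2 and 33.3% beside 27.8% in TRIM33-KO. In those labelled TRIM24-KO the share fell to 8.33% beside 12.4% of genes with only the compared groups in the fit, and to 13.9% beside 17.1% without the row CT010467.1. In line 1 it was 33.3% (12 members) beside 26.5% with only the compared groups in the fit. The median log2 fold change of the members was 0.00 in both WT lines, 0.02 in TRIM33-KO and 0.08 in the libraries labelled TRIM24-KO, and the median over all genes was -0.03 and -0.07 in the WT lines, -0.09 in TRIM33-KO and 0.00 in those labelled TRIM24-KO.

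How the libraries were scaled decided some of these splits. With median-of-ratios factors 7 members rose and 2 fell in line 2, and 9 rose and 3 fell in TRIM33-KO, and DESeq2 gave the same counts for both lines. With these factors the shares were 25% of members beside 24.3% of genes in line 2, and 33.3% beside 34.2% in TRIM33-KO. In line 1 DESeq2 gave 3 and 2 (13.9% beside 12.6%). Without the libraries of high CT010467.1 share, 5 rose and 0 fell in those labelled TRIM24-KO (13.9% of members beside 9.88% of genes), and 4 rose and 4 fell in TRIM33-KO (22.2% beside 28.2%). The calls that ended were those of Npm1 (0.13, adjusted p 0.291), Dkc1 (0.23, 0.0514) and Ebna1bp2 (0.18, 0.190) in the former and of Polr1b (-0.18, 0.108), Polr1c (-0.20, 0.133) and Tcof1 (-0.16, 0.0906) in the latter. In the former the calls also dropped to 4 rises and 1 fall when the row CT010467.1 itself was left out (13.9% of members beside 17.1% of genes). They became fewer, as did those of all genes, without either no-DOX library of WT pLV2 line 1 or either no-DOX library labelled TRIM24-KO. The member medians were then 0.06 and 0.06 (all genes -0.03 and -0.03) without a line 1 library. Without a library labelled TRIM24-KO they were 0.12 and 0.03 (0.00 and -0.02). Leaving out 1 library gave 1 or 2 calls in line 1 for each of its 4 libraries, 4 in line 2 without its no-DOX replicate 2 and 3 without its DOX replicate 1, and 7 in TRIM33-KO without its replicate 1 of either treatment. The share of all genes called dropped in these fits too, to between 8.32% and 10.3% in line 1, to 18.8% and 15.5% in line 2 and to 27.3% and 23.3% in TRIM33-KO.

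Among the initiation factors, Taf1d (chromosome 9, 15306214 to 15316991), an SL1 subunit with 8 snoRNA genes inside it, was the member with the largest DOX response in each pLV2 line. Without DOX its level in CPM was 301 and 290.1 for WT pLV2 line 1, 235 and 233 for line 2, 261 and 238 in the libraries labelled TRIM24-KO, and 226 and 255 in TRIM33-KO. With DOX it was 424 and 428, 416 and 391, 346 and 385, and 457 and 459 CPM in the same order. Every library with DOX was above every one without it, in each line and across the 4 lines, as for 7.3% of all genes. The log2 fold changes were 0.53 ± 0.07 (SE, adjusted p 5.96e-05), 0.79 ± 0.07 (3.32e-07), 0.55 ± 0.07 (3.26e-05) and 0.93 ± 0.07 (2.95e-08), and the call held in each line under all 25 alternatives.

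In the plain set Taf1d went from 369 and 313 CPM to 475 and 422 with DOX in WT, and from 460.2 and 459 to 602 and 587 in DUXBL-KO. The libraries did not overlap in either line, which 21.1% of genes in WT and 23.1% in DUXBL-KO also showed in this direction, and the log2 fold changes of 0.39 ± 0.10 (adjusted p 0.131) and 0.37 ± 0.10 (0.120) did not pass. Without a filter on low counts both did (0.0102 and 0.0293), and so did both with the replicate number as a block (0.0235 and 0.0213). Both strands matter here, since 2 genes, Cep295 and 4931406C07Rik, overlap exons of Taf1d on the opposite strand, and the strand setting of the counting is not given in the sources used here. Of the 8 snoRNA rows inside Taf1d, 3, 5, 4 and 5 were called higher in line 1, line 2, the libraries labelled TRIM24-KO and TRIM33-KO, 1 in WT and 0 in DUXBL-KO. In this order 10%, 12.7%, 11.5%, 16.5%, 2.82% and 4.5% of all genes were called higher. These rows lie within Taf1d on the same strand, and whether their reads came from the Taf1d transcript was not tested. Gm23455, the most counted of them (203 to 775 counts per library), rose by 1.15 ± 0.12 in TRIM33-KO (adjusted p 6.40e-07), and by 1.35 without the libraries of high CT010467.1 share.

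Ubtf, which bends the rRNA promoter and marks active rRNA genes, was called lower in line 2 (-0.26 ± 0.06, adjusted p 0.00411) and in TRIM33-KO (-0.32 ± 0.06, 5.18e-04). The call in line 2 ended without its no-DOX replicate 2 (0.0796), its DOX replicate 1 (0.0751) or the TRIM33-KO DOX replicate 2 (0.0503) and with only the compared groups in the fit (-0.18, 0.166), and that in TRIM33-KO held under all 25 alternatives. Ubtf was -0.08 in line 1, -0.07 in the libraries labelled TRIM24-KO, -0.04 in WT and 0.00 in DUXBL-KO. Rrn3 was positive in all 6 lines, between 0.05 and 0.23, with no call. Of the remaining initiation factors, Taf1a, Taf1b and Taf1c were called in no line.

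Of the 5 Pol I subunit members, 3 were called, each in TRIM33-KO and in no other line. There Polr1b, the second largest subunit, was -0.21 ± 0.07 (adjusted p 0.0288). Polr1c, shared with Pol III, was -0.26 ± 0.08 (0.0151) and Polr1e was -0.30 ± 0.11 (0.0330). None of these 3 passed with median-of-ratios factors or in DESeq2, and they held in 13, 16 and 15 of 25 alternatives. Leaving out either DOX library of TRIM33-KO ended all 3 calls (adjusted p 0.0607 to 0.290). Polr1a was between -0.03 and 0.37 over the 6 lines with no call. Of 9 other Pol I and shared polymerase subunits, 1 rose and 2 fell in TRIM33-KO, 1 and 1 in line 2, and 1 and 0 in line 1 and in the libraries labelled TRIM24-KO, with none called in the plain set. The gene that rose was in each line the shared subunit Polr2l, by 0.37 ± 0.10 in line 1, 0.59 ± 0.09 in line 2, 0.78 ± 0.10 in TRIM33-KO and 0.44 ± 0.10 in those labelled TRIM24-KO. The Pol I subunit Twistnb was -0.46 ± 0.08 in line 2 and -0.62 ± 0.08 in TRIM33-KO.

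Among the snoRNP proteins Nop56 (chromosome 2, 130274430 to 130279313), a box C/D core protein with 5 snoRNA genes inside it, was the other member called higher in all 4 pLV2 lines. Without DOX it stood at 310.3 and 301 CPM in line 1, 298 and 281 in line 2, 281 and 257 in the libraries labelled TRIM24-KO, and 287 and 292 in TRIM33-KO. With DOX it stood at 364 and 383, 368 and 336, 341 and 352, and 403 and 379 CPM. All 8 libraries with DOX were above all 8 without (7.3% of genes, as for Taf1d). The log2 fold changes were 0.29 ± 0.07 (adjusted p 0.00732), 0.28 ± 0.07 (0.00592), 0.37 ± 0.07 (0.00107) and 0.43 ± 0.07 (1.04e-04). Leaving out the DOX replicate 2 of line 1 or the DOX replicate 1 of line 2 ended the call in that line (adjusted p 0.0923 and 0.0936).

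In the plain set Nop56 had 392 and 396 CPM in WT without DOX and 428 and 442 with it, and 456 and 458 against 511 and 529 in DUXBL-KO. These groups did not overlap either (the same background of 21.1% and 23.1%), with log2 fold changes of 0.14 ± 0.07 (adjusted p 0.561) and 0.19 ± 0.07 (0.290). None of the 5 snoRNA rows inside Nop56 was called in any line, and their counts were low outside Gm23187 (45 to 232 per library). Idh3b lies on the opposite strand across exons of Nop56.

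Fibrillarin (Fbl), the box C/D methyltransferase, was between -0.04 and 0.16 with no call, and Nop58 and Rrp9 were called in no line. Of the H/ACA proteins, dyskerin (Dkc1), the pseudouridine synthase, was called higher in the libraries labelled TRIM24-KO (0.21 ± 0.06, adjusted p 0.0200) and TRIM33-KO (0.22 ± 0.06, 0.00719), and was positive in all 6 lines. Nhp2 (0.25 ± 0.07, 0.0287) and Nop10 (0.22 ± 0.06, 0.0216) were called in the former and in no other line. There the calls of Dkc1, Nhp2 and Nop10 held in 15, 15 and 16 of 25 alternatives. Without the DOX replicate 1 of that line their log2 fold changes were 0.17 (adjusted p 0.163), 0.15 (0.301) and 0.16 (0.219), and without its no-DOX replicate 2 they were 0.14 (0.284), 0.21 (0.195) and 0.16 (0.245). Leaving out either no-DOX library of line 1, or fitting the compared groups only, ended these 3 calls too. In TRIM33-KO the Dkc1 call held in 23 of 25 and ended without its DOX replicate 1 (0.0590). Gar1 was not called.

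Of the abundant nucleolar proteins, Npm1 was called higher in the libraries labelled TRIM24-KO (0.22 ± 0.06, adjusted p 0.0271) and TRIM33-KO (0.24 ± 0.06, 0.00647), and was positive in every line, at 0.12 to 0.24. The first of these calls held in 14 of 25 alternatives and ended without either no-DOX library of that line (0.0681 and 0.255) or without its DOX replicate 2 (0.273). The second held in 24 and ended without the no-DOX replicate 1 (0.0554). Nolc1, which links snoRNPs to the nucleolus, was called in those labelled TRIM24-KO (0.33 ± 0.07, 0.00266). That call held under all 25. Treacle (Tcof1), a Pol I and UBF partner, was called lower in line 1 (-0.21 ± 0.06, 0.0197) and in TRIM33-KO (-0.17 ± 0.06, 0.0315). These held in 14 and 9 of 25 alternatives, and each ended without any one of the 4 libraries of its line, with values from -0.16 to -0.21 in line 1 (adjusted p 0.113 to 0.243) and from -0.12 to -0.18 in TRIM33-KO (0.0690 to 0.217). In TRIM33-KO Tcof1 was -0.09 with median-of-ratios factors (0.230) and -0.07 with only the compared groups in the fit (0.512). Ncl was positive in every line, between 0.03 and 0.18, and was not called.

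Of the processome and assembly members, Wdr43 (chromosome 17, 71615895 to 71659031), a small subunit processome protein with 3 snoRNA genes inside it, was called lower in both WT pLV2 lines and in TRIM33-KO. Without DOX it had 213 and 203 CPM in line 1, 205 and 192 in line 2, 215 and 199 in the libraries labelled TRIM24-KO and 206 and 206 in TRIM33-KO. With DOX it had 178 and 184, 153 and 162, 188 and 194, and 144 and 150.4 CPM. No library with DOX reached the lowest without DOX of its own line, where 33.5%, 35.6%, 26.6% and 40.7% of genes did not overlap in this direction. The log2 fold changes were -0.20 ± 0.06 (adjusted p 0.0390), -0.33 ± 0.06 (8.82e-04), -0.12 ± 0.06 (0.245) and -0.48 ± 0.06 (1.51e-05).

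The Wdr43 call in line 1 held in 9 of 25 alternatives, with adjusted p up to 0.446 when its no-DOX replicate 1 was left out. In line 2 it held in 24 of 25, and in TRIM33-KO in all 25. In WT the levels of Wdr43 were 288 and 267 CPM without DOX and 248 and 273 with it, and in DUXBL-KO 287 and 314 against 246 and 284. The groups overlapped in WT and not in DUXBL-KO (as for 19.7% of genes in this direction there), with log2 fold changes of -0.09 (adjusted p 0.886) and -0.18 (0.532).

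Ppan (chromosome 9, 20888175 to 20892178), a large subunit assembly factor with 2 snoRNA genes inside it, was called lower in the same 3 lines. Annotated exons cover its whole span (4004 bases), the snoRNA genes included. Without DOX it had 148 and 139.9 CPM in line 1, 97.8 and 103 in line 2, 107 and 105 in the libraries labelled TRIM24-KO and 99.0 and 110.3 in TRIM33-KO. With DOX it had 118 and 118, 83.9 and 85.2, 98.1 and 86.8, and 73.8 and 79.1 CPM. The groups did not overlap in any of the 4 lines (the background is that given for Wdr43). The log2 fold changes were -0.29 ± 0.07 (adjusted p 0.00765), -0.25 ± 0.07 (0.0149), -0.19 ± 0.07 (0.0908) and -0.45 ± 0.07 (1.04e-04).

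The Ppan call in line 1 ended without any one of its 4 libraries (adjusted p 0.0508 to 0.197), and held in 17 of 25 alternatives in line 2. In TRIM33-KO it held in all 25. In the plain set Ppan had 172 and 159.9 CPM without DOX and 144 and 151 with it in WT, and 176 and 175 against 149 and 154 in DUXBL-KO. These groups did not overlap, as for 20.1% and 19.7% of genes in this direction, with log2 fold changes of -0.17 (adjusted p 0.546) and -0.21 (0.282).

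**Figure D3:**
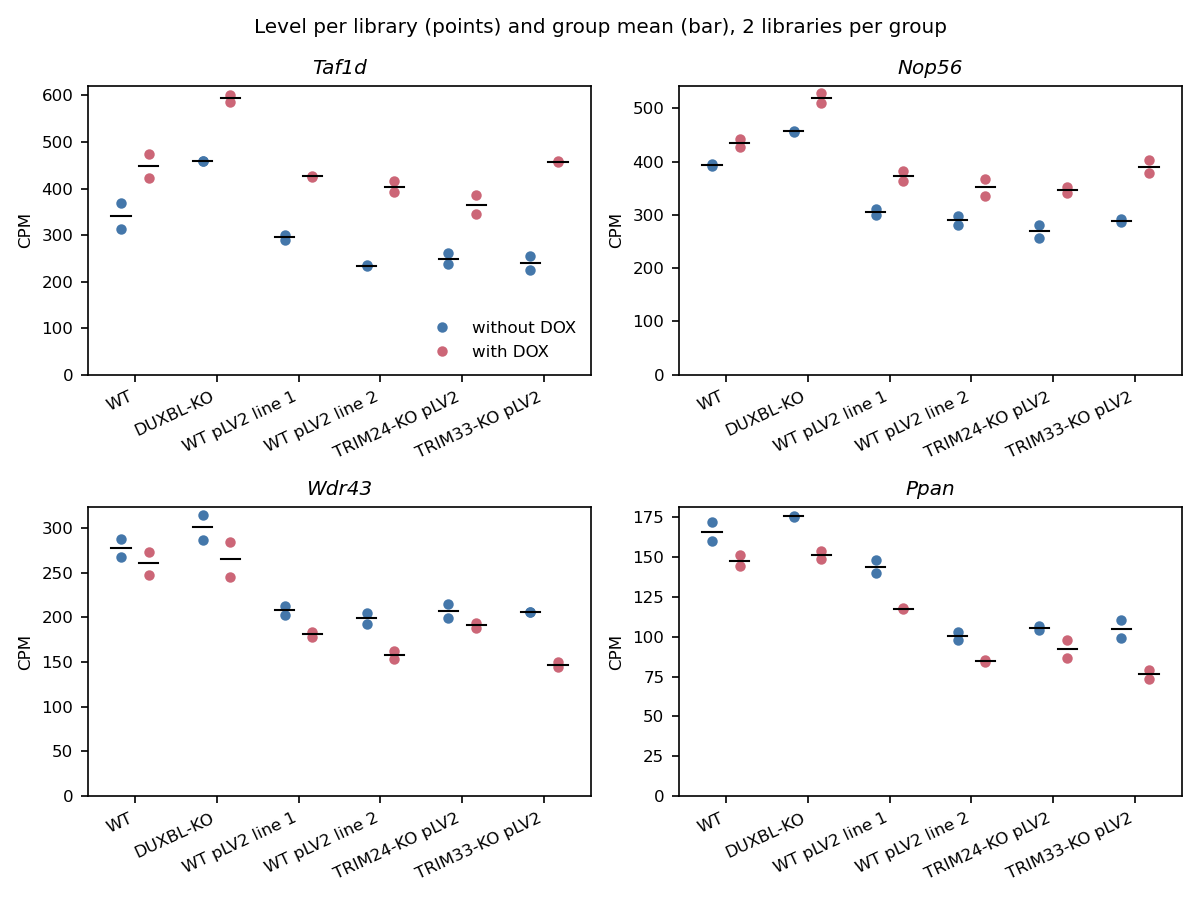
CPM of Taf1d, Nop56, Wdr43 and Ppan in all 24 libraries (points, 2 per group) with the group mean (bar), without DOX in blue and with DOX in red, for the 6 lines. Taf1d and Nop56 sit higher with DOX in every line, Ppan sits lower, and the Wdr43 libraries of WT overlap.

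Taf1d, Nop56, Wdr43 and Ppan are all among the 7 members with snoRNA genes inside them, a pattern seen after these results. The other 3 hosts are Nop58, Ncl and Dkc1, which gave calls only for Dkc1. Of all genes, 15.9% were called in 3 or more DOX comparisons, and hosts outside the members are set beside all genes at the end. Among the remaining assembly members, Bop1 (0.32 ± 0.10, adjusted p 0.0279) and Ebna1bp2 (0.24 ± 0.06, 0.00809) were called higher in line 2, and Ebna1bp2 also in the libraries labelled TRIM24-KO (0.22 ± 0.06, 0.0221). The Bop1 call ended without the no-DOX replicate 2 (0.18, 0.215) or the DOX replicate 1 (0.16, 0.367) of line 2, and the Ebna1bp2 call in those labelled TRIM24-KO held in 15 of 25 alternatives. Heatr1, a processome scaffold needed for Pol I transcription, was between -0.08 and 0.22 with no call. The rRNA methyltransferase Nop2 was between -0.08 and 0.12 with no call.

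Whether the DOX response of a member differed between lines was tested as an interaction. None of the 36 members passed in any of the 4 contrasts, with edgeR or with DESeq2. For DUXBL-KO against WT 0 had an unadjusted p under 0.05 (0% of all genes were called). For the libraries labelled TRIM24-KO against both WT pLV2 lines 1 did (0.437%), for TRIM33-KO 2 did (0.575%), and for line 2 against line 1 3 did (0.238%). The 2 in TRIM33-KO were Taf1d, with a DOX response larger by 0.27 ± 0.09 (adjusted p 0.274), and Wdr43, with a difference in response of -0.22 ± 0.08 (0.332). A difference in response between lines was thus not shown for any member.

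The other genes of the pathway are given by list. Of 94 other ribosome assembly factors, 3 rose and 4 fell in line 1, 4 and 13 in line 2, 5 and 2 in the libraries labelled TRIM24-KO, and 8 and 24 in TRIM33-KO. Beside these, 16.3%, 26.8%, 16.4% and 36.6% of all genes were called in either direction in this order of lines, which is the background of the other lists as well. Nob1, an endonuclease of small subunit maturation, was -0.59 ± 0.07 in TRIM33-KO. Of 75 cytosolic ribosomal proteins, 65 rose in TRIM33-KO, 46 in line 2, 12 in those labelled TRIM24-KO and 1 in line 1, with none lower. The stalk protein Rplp0 rose by 1.07 ± 0.06 in TRIM33-KO and by 0.45 ± 0.06 in line 1. Of 21 Pol III genes, 1 rose and 6 fell in TRIM33-KO and 1 and 4 in line 2. Without the libraries of high CT010467.1 share, TRIM33-KO gave 8 rises and 12 falls of assembly factors, 71 rises of ribosomal proteins and 1 rise and 3 falls of Pol III genes, and those labelled TRIM24-KO gave 3 and 1 assembly factors and 5 rises of ribosomal proteins. Nob1 was then -0.53 in TRIM33-KO, and Rplp0 was still called higher (adjusted p 1.67e-09). In the plain set 1 gene of these lists was called, a ribosomal protein higher in DUXBL-KO.

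Of 11 genes of the MYC network, which drives ribosome production in many cells, 1 rose and 6 fell in line 1, 1 and 5 in line 2, 1 and 1 in the libraries labelled TRIM24-KO, and 2 and 6 in TRIM33-KO. In line 1 Myc itself was -0.55 ± 0.14 (adjusted p 0.00967), and in TRIM33-KO Mycn was -0.84 ± 0.08 (3.38e-07). Of 17 p53 target genes tested, which respond to disturbed ribosome assembly among other stresses, 8 rose and 2 fell in TRIM33-KO, 4 and 1 in those labelled TRIM24-KO, and 3 and 2 in each WT pLV2 line. In TRIM33-KO Plk2 rose by 1.87 ± 0.12 (1.61e-09). In the plain set 1 MYC network gene rose in DUXBL-KO and none was called in WT. There p53 targets gave falls and no rise: 2 fell in WT, Phlda3 (-0.83 ± 0.14, adjusted p 0.0260) and Zmat3 (-0.55 ± 0.09, 0.0232), and 3 in DUXBL-KO, with list medians of -0.35 and -0.45. The medians in line 1, line 2, those labelled TRIM24-KO and TRIM33-KO were -0.09, 0.05, 0.12 and 0.24. Without the libraries of high CT010467.1 share, 7 p53 targets rose and 1 fell in TRIM33-KO and 2 and 1 in those labelled TRIM24-KO, and 1 MYC network gene rose and 5 fell in TRIM33-KO.

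Pluripotency markers changed beside these genes. Of 12 tested, 2 rose and 3 fell in line 1, 1 and 7 in line 2, 1 and 6 in the libraries labelled TRIM24-KO and 1 and 7 in TRIM33-KO, and none was called in the plain set. Without the libraries of high CT010467.1 share, 1 rose and 4 fell in those labelled TRIM24-KO, where Sox2 (adjusted p 0.0309 before, 0.207 then) and Utf1 (0.00441 and 0.0635) lost their calls, and 1 rose and 7 fell in TRIM33-KO. Sox2 was -0.53 ± 0.07 in line 2 and -0.71 ± 0.07 in TRIM33-KO, and Klf4 was -0.51 ± 0.08 and -0.68 ± 0.08. Their part in the results of the members was not tested. These lists were described by their counts and medians only.

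The second question was how the lines differed before DOX. DUXBL-KO against WT gave 0 calls among the 36 members (0.0388% of all genes were called), 3 unadjusted p under 0.05 and 0 calls in DESeq2. In the pLV2 set differences were widespread. Line 2 against line 1, both WT by label, gave 14 members higher and 4 lower, where 18.9% of all genes were called higher and 19.3% lower (38.3% in all). The libraries labelled TRIM24-KO against the mean of both WT lines gave 2 higher and 17 lower, beside 20.9% and 22.5% (43.4%). TRIM33-KO gave 11 higher and 1 lower, beside 12.8% and 11.1% (23.9%). These 2 comparisons share their WT libraries. The member medians were 0.10, -0.16 and 0.13, against 0.00, -0.02 and 0.00 over all genes.

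The WT line used as reference changed these counts. TRIM33-KO had 16 members higher and 4 lower than line 1 (20.2% and 20.6% of genes, 40.9% in all), and 0 called against line 2 (1.52%), where 1 had an unadjusted p under 0.05. The libraries labelled TRIM24-KO had 3 higher and 10 lower against line 1 (16.5% and 17.5% of genes, 34% in all) and 2 higher and 17 lower against line 2 (22.8% and 25.3%, 48.1% in all). In these, Polr1a was higher than in both lines and 6 members were lower than in both: Polr1b, Polr1c, Taf1b, Mybbp1a, Pes1 and Nop2. Without their replicate 2, fewer members were called against the mean, and the member median was -0.09 beside 0.00 over all genes (-0.16 and -0.02 with it). Whether fewer of all genes were called in that fit too is not given here.

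In all 3 comparisons, which share WT libraries, 9 members (25%) were called, beside 11.7% of all genes. Of these, Ncl, Npm1, Nop58, Nhp2, Pes1, Nop2, Mybbp1a and Ftsj3 were higher in line 2 than line 1, higher in TRIM33-KO and lower in the libraries labelled TRIM24-KO than the WT mean, and Pes1, Nop2 and Mybbp1a were lower in the latter than in both WT lines. Ppan went against this pattern and was lower in all 3 (but above line 2 when that line alone was the reference, at 0.06 in TRIM33-KO and 0.07 in those labelled TRIM24-KO, neither called), with log2 fold changes of -0.52 in line 2, -0.20 in TRIM33-KO (adjusted p 0.0221) and -0.19 in those labelled TRIM24-KO (0.0177). Ftsj3 in TRIM33-KO also turned sign with line 2 alone as reference, at -0.01. Levels follow for the first 6 of the 9. Ncl had 2067 and 2065 CPM in line 1, 3222 and 2677 in line 2, 2023 and 1903 in the libraries labelled TRIM24-KO, and 3209 and 3315 in TRIM33-KO. Between line 2 and line 1 its log2 fold change was 0.51 ± 0.09, line 2 being higher (adjusted p 1.60e-04). Line 2 and TRIM33-KO stood above line 1 and those labelled TRIM24-KO with no overlap, as they did for 19.5% of all genes and for 14 of the 36 members. Npm1 had 2175 and 2156, 2931 and 2965, 2072 and 1994, and 3004 and 3276 CPM in the same order of lines, and differed by 0.44 ± 0.06 between line 2 and line 1 (4.03e-05).

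Nop58, a box C/D core protein, had 248 and 244 CPM in line 1, 373 and 299.6 in line 2, 243 and 209.7 in the libraries labelled TRIM24-KO, and 359.9 and 362 in TRIM33-KO. Nhp2 had 136 and 125, 167 and 172, 129.5 and 128.5, and 175 and 198 CPM. Pes1, a partner of Bop1 and Wdr12 in large subunit assembly, had 203 and 207, 262 and 283, 163 and 169, and 279 and 296 CPM. All 3 showed the order seen for Ncl. Nop2 had 176 and 178, 254 and 249, 146 and 151, and 256 and 264 CPM, so that the libraries labelled TRIM24-KO also lay below line 1 (-0.25, against -0.76 relative to line 2).

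In the plain set without DOX, the same 6 genes gave no call. Ncl had 2443 and 1929 CPM in WT and 2553 and 2760 in DUXBL-KO. Npm1 had 3220 and 2518 against 3088 and 2958. For both genes the 2 WT libraries lay further apart, as a ratio, than those of any of the 4 pLV2 groups without DOX.

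Between WT pLV2 lines 2 and 1 the median difference varied by chromosome. Between line 2 and line 1 the median log2 fold change of all tested genes was 0.43 on chromosome 1, 0.40 on chromosome 11, 0.31 on chromosome 8 and 0.30 on chromosome 6, and between -0.20 and 0.14 on the others. The members on chromosome 6 were Nop2 at 0.51 and Polr1a at -0.06, and that on chromosome 8 was Taf1c at 0.04. Of the 36 members 11 lie on chromosome 1 (Ncl, Nop58, Rrs1, Taf1a and Wdr12) or 11 (Ftsj3, Mybbp1a, Nhp2, Npm1, Pes1 and Ubtf), and 9 of these 11 were called higher in line 2, against 5 of the other 25, where 47.4% of all genes on these chromosomes and 14.3% elsewhere were. In TRIM33-KO against the WT mean 8 of the 11 were called higher, against 3 elsewhere (32.3% and 9.61% of genes), and in the libraries labelled TRIM24-KO 8 were called lower, against 9 elsewhere (38.4% and 20%).

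Over the 36 members, the log2 fold change of line 2 over line 1 followed the median of the member's chromosome with a Pearson r of 0.67 and a Spearman rho of 0.62, given as a description since members on one chromosome share that median. For the libraries labelled TRIM24-KO these were 0.44 and 0.09 against line 1 and 0.48 and 0.51 against line 2. For TRIM33-KO they were 0.60 and 0.49 against line 1 and 0.13 and 0.12 against line 2, so the rank relation was near 0 for the former against line 1 and for the latter against line 2. For DUXBL-KO against WT they were 0.55 and 0.35. There chromosome 11 had a median of -0.21, with 16.9% of 1373 genes positive and 1 called, and Npm1 (0.08), Nhp2 (-0.24) and Pes1 (-0.19) on it were not called. Ncl at 0.51 and Npm1 at 0.44 lay near the medians of chromosomes 1 and 11, while Ubtf at 0.03 lay below that of chromosome 11. Ppan at -0.52 ± 0.07 (adjusted p 1.97e-05) was far from the median of chromosome 9 of -0.07. Within 500 kb of Ppan, 38 neighbours had a median of -0.26, with 17 called lower and 0 higher. DNA copy number was not measured, and its part in these differences was not tested.

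**Figure D4:**
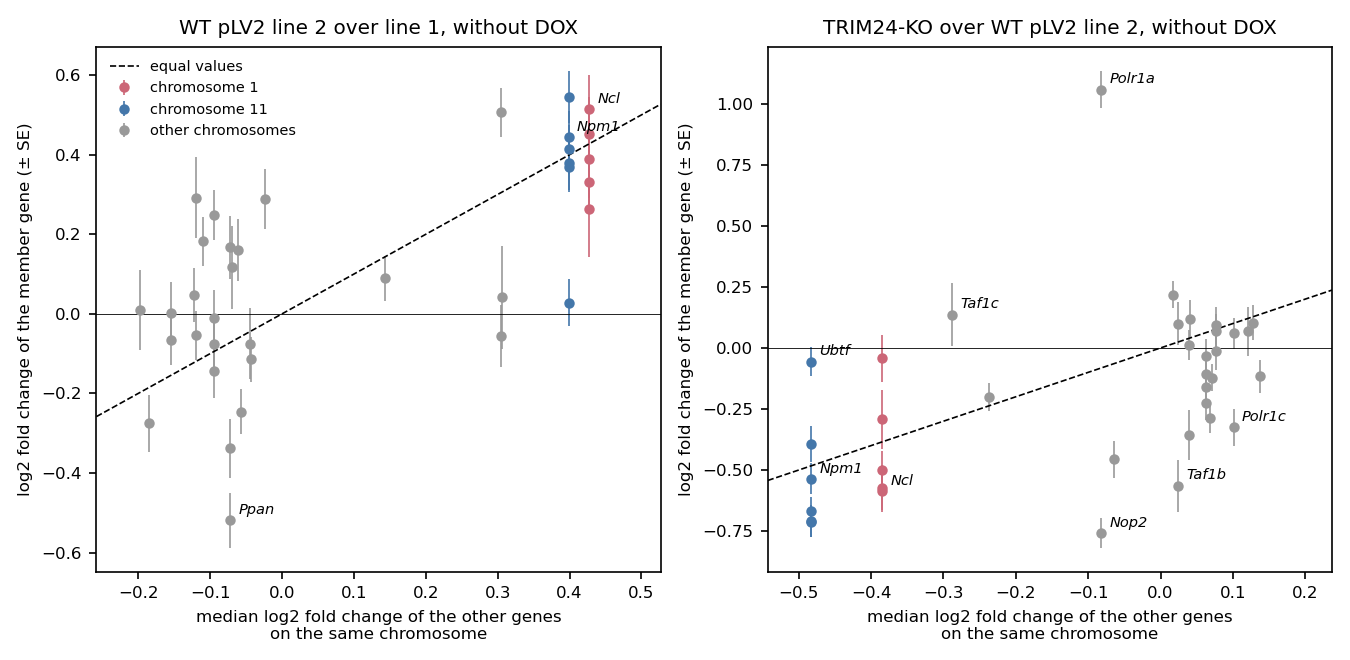
log2 fold change of each member (vertical axis, ± SE) against the median of the genes on its chromosome (horizontal axis), without DOX, for WT pLV2 line 2 over line 1 (left) and for the libraries labelled TRIM24-KO over line 2 (right). Members on chromosomes 1 (red) and 11 (blue) sit to the right on the left panel and to the left on the right panel, and Polr1a stands apart at 1.06 on the right.

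Polr1a (chromosome 6, 71909053 to 71984935) was the member with the largest difference between lines. Without DOX it had 188 and 176 CPM in the libraries labelled TRIM24-KO, against 93.0 and 88.9 in line 1, 88.4 and 86.5 in line 2, and 78.8 and 84.3 in TRIM33-KO. No other library of the pLV2 set came near this level, and with DOX those labelled TRIM24-KO stayed at 200.4 and 195 CPM. The log2 fold change over the WT mean was 1.03 ± 0.06 (adjusted p 1.86e-09), and the call held under all 27 alternatives. Polr1d, shared by Pol I and Pol III, was the other member called higher (0.20 ± 0.07, 0.0239).

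The genes around Polr1a were higher as well. Of 18 tested neighbours within 500 kb on either side, 16 were called higher and 0 lower, with a median of 0.85. On chromosome 6, each stretch of 10 Mb from 40 to 110 Mb had a median between 0.58 and 1.10, and each beyond 110 Mb had one between -0.33 and -0.26. Nop2 lies beyond that point (125131909 to 125144753) and was lower by 0.50 (log2 fold change -0.50 ± 0.05, adjusted p 1.22e-06), beside a median of -0.28 for its 43 neighbours. The labelled knockout target Trim24 lies on the same chromosome. Whether a change in DNA copy number or the knockout accompanies this pattern was not tested.

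**Figure D5:**
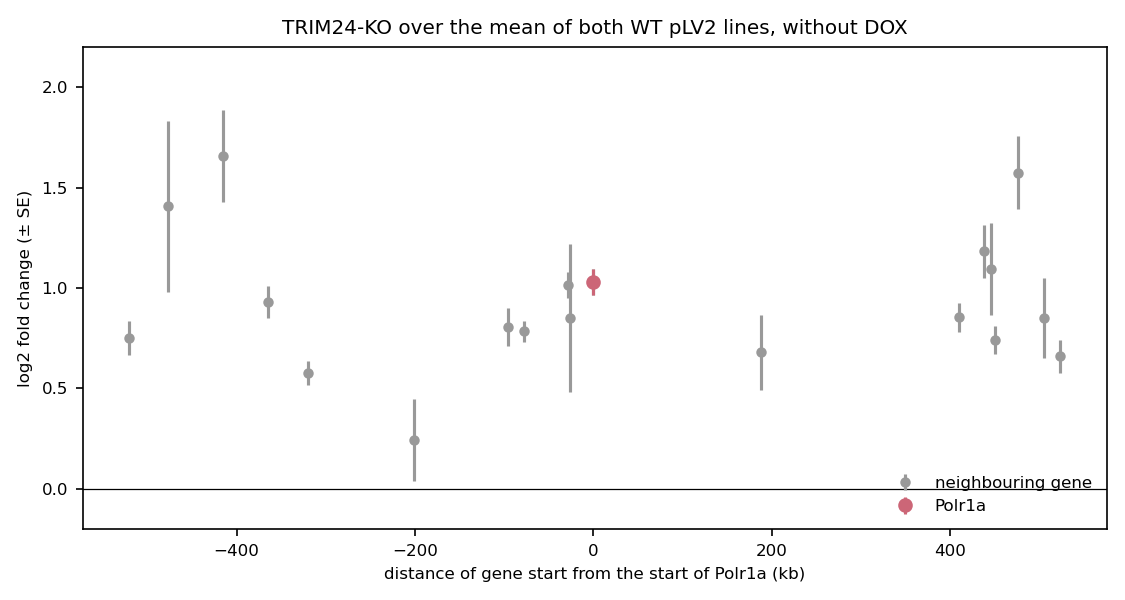
log2 fold change (vertical axis, ± SE) of Polr1a (red) and its neighbours (grey) in the libraries labelled TRIM24-KO over the mean of the 2 WT pLV2 lines before DOX, by distance of the gene start from that of Polr1a in kb. Polr1a stands at 1.03, and the median of the 18 neighbours is 0.85.

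Other members called lower in the libraries labelled TRIM24-KO stood in various relations to their neighbours. Taf1b, the SL1 subunit that contacts Pol I, was -0.51 ± 0.09 (adjusted p 3.56e-04), while its 7 neighbours on chromosome 12 had a median of 0.01. Polr1c was -0.32 ± 0.07 (9.13e-04), with a median of 0.15 over 28 neighbours, 12 of them called higher. Polr1b was -0.23 ± 0.06 (0.00581), with a median of -0.03 over 17 neighbours. Mybbp1a, which restrains Pol I, was -0.49 ± 0.05 (1.01e-06) and Pes1 was -0.51 ± 0.05 (1.20e-06), both on chromosome 11, where 19 neighbours of the former had a median of -0.44 and 27 of the latter one of -0.20.

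The other lists are given for the lines without DOX as well, by counts only. In the libraries labelled TRIM24-KO 20.9% of all genes were called higher and 22.5% lower than the WT mean. These shares were 12.8% and 11.1% in TRIM33-KO, and 18.9% and 19.3% in line 2 against line 1. They are the background of each list here. Of 94 other assembly factors, 6 were higher and 48 lower in the libraries labelled TRIM24-KO than the WT mean, 30 and 6 in TRIM33-KO, and 36 and 10 in line 2 against line 1. Nifk, an Mki67-binding nucleolar protein, was higher by 1.34 ± 0.14 in line 2. Of 75 ribosomal proteins, 4 were higher and 62 lower in line 2 than in line 1, and against the WT mean 5 and 38 in TRIM33-KO and 2 and 30 in those labelled TRIM24-KO. Of the 17 p53 targets 16 were higher and 0 lower in the libraries labelled TRIM24-KO, with Cdkn1a at 1.36 ± 0.09 (adjusted p 2.39e-09), and in them Myc was higher by 2.10 ± 0.10 (1.14e-10). In TRIM33-KO 2 p53 targets were higher and 7 lower, with Pmaip1 at -0.87 ± 0.11, and in line 2 against line 1 there were 3 and 9, with Bbc3 at -1.11 ± 0.13. Myc was -0.94 ± 0.14 in line 2 against line 1. Of the 10 fibroblast markers tested, 2 were higher and 6 lower in the libraries labelled TRIM24-KO than the WT mean, and 6 were higher in line 2 than in line 1. Of the 15 markers of the 2-cell-like state, 5 were lower in line 2 than in line 1, among them Zscan4c at -2.79 ± 0.72 (0.00526). Of the 12 pluripotency markers, 3 were higher and 6 lower in line 2 than in line 1, with Dppa5a at -1.19 ± 0.14, 3 and 7 in the libraries labelled TRIM24-KO than the WT mean, with Tfcp2l1 at -0.71 ± 0.07, and 2 and 5 in TRIM33-KO. The part of fibroblasts and of cell state in these differences was not tested.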

How the data were processed

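The deposited tables give whole-number counts per Ensembl gene and per repeat subfamily for each of 24 libraries, not normalized by the authors. The submitters' processing notes name bcl2fastq 2.20.0, cutadapt 1.18, STAR 2.7.6a and the build mm10, with no role or order, and the counting tool and its strand setting are not given in the sources used here. Per the labels' protocols the RNA was rRNA-depleted and the kit strand-specific.

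Gene IDs were matched to GENCODE M21, 54349 of 55487 with their version, 792 without it and 346 not at all. The 1146 repeat rows were left out of library sizes and tests. Groups came from the sample titles. The plain set (8 libraries) and the pLV2 set (16 libraries) were fitted apart with edgeR 4.0.16 in R 4.3.3 (TMM factors, filterByExpr, glmQLFit and glmQLFTest, all groups of a set in one fit), which left 18060 and 18079 genes. Adjusted p-values are Benjamini-Hochberg over all of these in each of 14 contrasts (6 of DOX against no DOX, 4 between lines without DOX, 4 interactions), with a threshold of 0.05. Values after ± are standard errors of the log2 fold change. CPM are counts scaled to the TMM-adjusted library size, and CPM per kb divides by the length of the union of a gene's annotated exons. Promoter windows came from a RefSeq table on GRCm38.p6, and copies were sought with BLAST 2.17.0.

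Gene counts of 11784696 to 19136869 per library gave every member at least 107 counts in each library. The counting error at the lowest count, as a coefficient of variation, was 2.98% for the median member but 9.67% for Taf1a, and 4 members (Taf1a, Taf1b, Taf1c and Polr1e) had lowest counts under 200, where it is about as large as the spread between replicates in the pLV2 set. The script was tested on simulated data. Members and gene lists were chosen with earlier results of these data known, and the motif CCGGAAG was added after the sequences were read. Values in every library are given for members called in at least 3 of the 6 DOX comparisons and, in list order, for up to 6 members called in all 3 of the TRIM24-KO, TRIM33-KO and line 2 comparisons without DOX. Full statistics are given for up to 3 rises and 3 falls per comparison and for core members, and up to 3 genes of another list are named by size of change. Further members and Trim24, Trim33, Duxbl1 and CT010467.1 were named after their values were seen. Alternatives were median-of-ratios factors, DESeq2 1.42.0, no filter or one on a mean of 10 counts, repeats added to library sizes, the row CT010467.1 left out, a block on the replicate number, a fit of the compared groups only, each library left out in turn and, for the knockouts, either WT pLV2 line alone as reference. After seeing the data, a fit without both libraries rich in CT010467.1 was added.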

Additional observations from a re-analysis of the deposited data

How the results depend on the processing

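The DOX calls of Taf1d in the 4 pLV2 lines, of Nop56 in the libraries labelled TRIM24-KO and in TRIM33-KO, and of Wdr43 and Ppan in TRIM33-KO held under all 25 alternatives. Counts of members called moved more. Without a filter on low counts they were 4 for DOX in the libraries labelled TRIM24-KO, 1 in WT, 1 in DUXBL-KO and 1 for DUXBL-KO against WT. As shares of members beside those of all genes, the DOX counts were 11.1% beside 8.86%, 2.78% beside 3.22% and 2.78% beside 4.47%. With only the compared groups in the fit, DOX gave 12 in line 1 (33.3% of members beside 26.5% of genes) and 4 in line 2 (11.1% beside 16.5%). It gave 3 in the libraries labelled TRIM24-KO (8.33% beside 12.4%). In those libraries DOX gave 5 without the row CT010467.1 (13.9% beside 17.1%) and 5 without both libraries where that row was high (13.9% beside 9.88%). TRIM33-KO without DOX gave 20 against line 1 alone and 0 against line 2 alone. Against line 2 alone 3 values turned sign: Ppan was 0.0697 in the libraries labelled TRIM24-KO and 0.0582 in TRIM33-KO, and Ftsj3 was -0.00996 in TRIM33-KO. All 4 interactions stayed at 0 calls under every alternative run. The cause of these changes was not tested, beyond fewer samples in some fits.

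Leaving out 1 library gave 0 calls throughout for the plain set, 1 to 5 for DOX in line 1, 3 to 9 in line 2, 3 to 8 in those labelled TRIM24-KO and 7 to 12 in TRIM33-KO, and without DOX 12 to 19 for those labelled TRIM24-KO, 10 to 17 for TRIM33-KO and 13 to 20 for line 2 against line 1. A lone library left in a group is assumed to vary like the other groups. The share of all genes called for DOX moved between these fits as well, so a changed count is not by itself a change in the members. No scaling moved the median of all genes by over 0.1 on the log2 scale.

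With the replicate number as a block, 2 members were called for DOX in WT, Taf1d (adjusted p 0.0235) and Bop1 (0.0412), 3 in DUXBL-KO, Taf1d (0.0213), Bop1 (0.0126) and Polr1a (0.0438), and 1 for DUXBL-KO against WT. For DOX these calls were 5.56% of members beside 5.32% of all genes in WT, and 8.33% beside 8.83% in DUXBL-KO, near the background. In the pLV2 set the block gave counts within 1.5 times of those without it. The labels do not say that a number marks a shared culture or day, and only 2 pairs exist per comparison, so the numbers were not taken to pair the libraries, and whether they do was not settled. Deviations of same-numbered libraries with and without DOX correlated across genes at 0.48 in WT, 0.68 in DUXBL-KO and between 0.03 and 0.29 in the pLV2 lines.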

Other observations

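Genes that host snoRNAs outside the members also gave DOX calls. Of 248 such hosts tested in the pLV2 set, 27 rose and 4 fell in line 1 (10.9% higher, beside 10% of all genes called higher), 50 rose and 26 fell in line 2 (20.2%, beside 12.7%), 36 rose and 4 fell in the libraries labelled TRIM24-KO (14.5%, beside 11.5%), and 78 rose and 35 fell in TRIM33-KO (31.5%, beside 16.5%). Their median log2 fold change was 0.06, 0.04, 0.06 and 0.06 in this order. The shares of these hosts called lower were 1.61%, 10.5%, 1.61% and 14.1%, beside 6.25%, 14%, 4.94% and 20.1% of all genes. Of 249 hosts in the plain set, 7 rose and 0 fell in WT (2.81%, beside 2.82%), and 10 rose and 2 fell in DUXBL-KO (4.02%, beside 4.5%). The shares called lower there were 0% beside 0.105% in WT and 0.803% beside 0.404% in DUXBL-KO. These counts were taken after the DOX results of Taf1d, Nop56, Wdr43 and Ppan were seen.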
